A study of Mus musculus with 102 samples.

Results

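The genes described here are 30 members of cholesterol synthesis and of its control by the transcription factor SREBP2. They were chosen by symbol for their place in the pathway, by a rule that uses no measured value but was drawn up with earlier results of these data known, and all 30 were found among the 18856 genes of the deposited normalized table and the 53715 genes of the raw count table. They hold 8 genes of the mevalonate pathway (Acat2, Hmgcs1, Mvk, Pmvk, Mvd, Idi1, Fdps, Ggps1), 3 genes from squalene to lanosterol (Fdft1, Sqle, Lss) and 9 from lanosterol to cholesterol (Cyp51, Tm7sf2, Lbr, Msmo1, Nsdhl, Hsd17b7, Ebp, Sc5d, Dhcr7). A further 4 encode SREBP2 and the proteins that hold it back or escort it (Srebf2, Scap, Insig1, Insig2), 4 encode sterol transport proteins (Stard4, Tmem97, Npc1, Npc2) and 2 supply acetyl-CoA (Acly, Acss2). RNA was sequenced from microglia, the resident macrophages of the central nervous system, sorted by flow cytometry from mouse lumbar spinal cord. Mice were ABC-imKO, which carry floxed alleles of both cholesterol exporters (Abca1fl/fl and Abcg1fl/fl) together with Cx3cr1-CreERT2, an inducible Cre recombinase driven from the microglial gene Cx3cr1, or wild type (WT). Cx3cr1 is also active in other mononuclear phagocytes, and whether the WT mice carried floxed alleles or Cre is not given in the sources used here. Within each genotype, 1 group had cisplatin, a platinum chemotherapy drug that causes painful neuropathy, by intraperitoneal injection on days 1 and 3 and the apolipoprotein A-I binding protein AIBP by intrathecal injection on day 7. Another had the same cisplatin and intrathecal saline on day 7, and the last was naive, with neither drug nor injection. There were 3 numbered samples in every group except WT cisplatin AIBP, which had 2 (7 and 9). The age and sex of the animals, the dose and time of the Cre inducer, and how many mice went into each numbered sample are not given in the sources used here.

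Cholesterol is built from acetyl-CoA. The mevalonate pathway makes isoprenoid units, farnesyl diphosphate is joined head to head into squalene, squalene is oxidised and folded into lanosterol, and lanosterol is trimmed and reduced to cholesterol. SREBP2, encoded by Srebf2, sits in the endoplasmic reticulum with its escort SCAP, and when sterols are plentiful the INSIG proteins keep that complex there. When sterols fall, SCAP carries SREBP2 to the Golgi, where it is cut and its freed part enters the nucleus and switches on most of these enzyme genes through sterol response elements, with the CCAAT-binding factor NF-Y as a usual partner. Microglia take up cholesterol-rich myelin debris and export cholesterol through ABCA1 and ABCG1.

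Promoter sequences of 25 of the 30 genes, 31 windows in all, were taken from RefSeq on build GRCm38.p6, each reaching from 250 bases before the start of transcription to 50 after it. Sqle, Fdps, Fdft1, Npc1 and Stard4 are named only. Both strands were searched for the sterol response element TCACNCCAC and for the CCAAT box CCAAT, and their matches did not overlap in Hmgcs1. The 250 bases before the start are shown 5′ to 3′ on the strand of the gene for Hmgcs1, because it was the only member with the element, and for the 4 other genes with an entry that passed the test in a comparison described further on. Capitals mark the motifs, and a CCAAT box on the opposite strand reads ATTGG. Hmgcs1, which makes HMG-CoA, lies at chr13:119690101-119690350 (plus strand). Cyp51, which encodes lanosterol demethylase, lies at chr5:4104698-4104947 (minus strand). Tmem97 encodes the sigma-2 receptor, a partner of NPC1, and its window is chr11:78550736-78550985 (minus strand). Hsd17b7, a sterol ketoreductase, has chr1:169969206-169969455 (minus strand), and Mvd, which makes isopentenyl diphosphate, has chr8:122443423-122443672 (minus strand).
Hmgcs1: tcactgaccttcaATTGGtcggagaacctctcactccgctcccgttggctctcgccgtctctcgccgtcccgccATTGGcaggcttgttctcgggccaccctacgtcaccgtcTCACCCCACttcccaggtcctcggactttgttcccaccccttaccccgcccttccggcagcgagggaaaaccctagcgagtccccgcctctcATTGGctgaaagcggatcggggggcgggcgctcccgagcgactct
Cyp51: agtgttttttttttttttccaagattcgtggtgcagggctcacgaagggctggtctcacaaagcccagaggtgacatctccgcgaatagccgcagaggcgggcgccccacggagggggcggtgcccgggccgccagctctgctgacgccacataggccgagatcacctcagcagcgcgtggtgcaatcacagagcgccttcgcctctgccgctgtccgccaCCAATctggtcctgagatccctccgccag
Tmem97: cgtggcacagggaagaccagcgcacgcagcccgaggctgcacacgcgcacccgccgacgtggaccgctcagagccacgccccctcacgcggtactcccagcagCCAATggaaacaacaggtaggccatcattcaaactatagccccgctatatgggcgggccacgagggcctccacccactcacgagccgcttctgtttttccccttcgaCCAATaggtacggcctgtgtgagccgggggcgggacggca
Hsd17b7: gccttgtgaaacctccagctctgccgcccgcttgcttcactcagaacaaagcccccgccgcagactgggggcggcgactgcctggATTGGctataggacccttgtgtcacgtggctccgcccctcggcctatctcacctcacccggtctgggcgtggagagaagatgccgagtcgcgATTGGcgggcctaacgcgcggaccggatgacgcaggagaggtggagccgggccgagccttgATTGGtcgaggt
Mvd: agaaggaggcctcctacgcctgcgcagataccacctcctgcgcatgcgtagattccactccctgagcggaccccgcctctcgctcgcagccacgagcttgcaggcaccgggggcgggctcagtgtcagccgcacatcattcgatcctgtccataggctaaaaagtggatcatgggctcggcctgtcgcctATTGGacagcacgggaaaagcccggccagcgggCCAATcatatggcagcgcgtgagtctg
The Hmgcs1 element runs from position -137 to -129, counted from the start of transcription. This motif was found in 1 of 25 members with an entry, against 388 of 27025 genes (1.44%). A CCAAT box was found in 23 of 25 members, against 41.1% of all genes and 42.6% of the 6903 genes with a promoter entry and a mean of 10 CPM or more in these samples. Counted by windows of the same length, 23 of 31 member windows (74.2%) and 37.4% of all 32851 windows held one. A match is a run of letters and not a measured binding site, and the strict spelling of the element leaves out variants of it.

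Each sample held 45072898 to 76643616 counts, summed over 3 technical replicates and 2 lanes. Levels are given as CPM, counts scaled to the library size after TMM (trimmed mean of M values) normalization. The microglial genes P2ry12 and Tmem119 stood at 754 CPM and 1620 CPM or more in every sample. The 12 microglial markers summed to 27383 to 35735 CPM in the samples labelled ABC-imKO cisplatin AIBP, 21502 to 25255 in ABC-imKO cisplatin saline, 42406 to 54747 in ABC-imKO naive, 43029 to 45245 in WT cisplatin AIBP, 30453 to 38655 in WT cisplatin saline and 53608 to 61348 in WT naive, none at 0 in any sample. In each cisplatin group the sums lay below those of every naive sample of its label's genotype, and their part in the differences between cisplatin and naive was not tested. Gene-level counts of the floxed genes cannot measure the deletion, since they include exons outside the floxed ones. Abca1 stood at 32.6 to 65.7 CPM in the samples labelled ABC-imKO cisplatin AIBP, 56.6 to 98.5 in ABC-imKO cisplatin saline, 66.1 to 105 in ABC-imKO naive, 41.1 to 45.6 in WT cisplatin AIBP, 60.4 to 76.1 in WT cisplatin saline and 87.3 to 114 in WT naive. Abcg1 stood at 25.6 to 59.0, 50.9 to 68.4, 41.6 to 66.4, 36.2 to 63.1, 42.7 to 65.7 and 91.7 to 160 CPM in the same order of groups. For Abcg1, the ABC-imKO naive samples lay below every WT naive sample, and for Abca1 the naive groups overlapped.

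The samples labelled ABC-imKO cisplatin AIBP went against their label in 2 genes. Cx3cr1, the gene that drives the Cre allele, stood at 5551, 5250 and 7078 CPM in them, against 7297 and 7902 in WT cisplatin AIBP. It stood at 1718, 2218 and 2771 CPM in ABC-imKO cisplatin saline, against 5609, 5531 and 7103 in WT cisplatin saline, and at 3397, 4291 and 4871 in ABC-imKO naive, against 9989, 10656 and 9349 in WT naive. Apoe, a lipid carrier, stood at 1541, 1007 and 1389 CPM in the samples labelled ABC-imKO cisplatin AIBP and at 1073 and 862 in WT cisplatin AIBP. It stood at 8111 CPM or more in ABC-imKO cisplatin saline, at no more than 1898 in WT cisplatin saline, at 3421 or more in ABC-imKO naive and at no more than 1297 in WT naive. In both genes these 3 samples lay outside the range of the other 6 ABC-imKO samples, on the side of the WT samples. They are therefore called by their label throughout, and every direction drawn from them depends on it. The 10 monocyte markers also varied between samples. Their summed level was 301 to 819 CPM in the samples labelled ABC-imKO cisplatin AIBP, 798 to 1281 in ABC-imKO cisplatin saline, 25.8 to 41.3 in ABC-imKO naive, 201 to 290 in WT cisplatin AIBP, 249.1, 1090 and 732 in WT cisplatin saline 4, 5 and 6, and 7.90 to 75.2 in WT naive. The 10 border macrophage markers summed to 2.55 to 74.6 CPM in the samples labelled ABC-imKO cisplatin AIBP, 25.3 to 35.7 in ABC-imKO cisplatin saline, 6.53 to 28.97 in ABC-imKO naive, 5.37 and 30.1 in WT cisplatin AIBP, 1.41, 157 and 108 in WT cisplatin saline 4, 5 and 6, and 0.16 to 4.7 in WT naive. The 12 proliferation genes summed to 576 to 927 CPM in the samples labelled ABC-imKO cisplatin AIBP, 365 to 675 in ABC-imKO cisplatin saline, 259 to 339 in ABC-imKO naive, 1192 and 1308 in WT cisplatin AIBP, 883 to 1221 in WT cisplatin saline and 231 to 375 in WT naive. Every cisplatin sample therefore lay above every naive sample of its label's genotype in the proliferation genes. The 8 endothelial markers summed to at most 15.5 CPM in any cisplatin sample and at least 16.9 in any naive one. The defining monocyte marker Ccr2 was at 0.324 CPM in WT cisplatin saline 4 and at 95.3 and 62.8 CPM in samples 5 and 6.

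Compared per kilobase of exon, so that genes can be set beside each other, the genes covered a wide range of levels. Npc2, which passes cholesterol to NPC1 in the lysosome, was the most abundant at 128 CPM per kilobase over the 17 samples, followed by Ebp, a sterol isomerase, at 52.1 and Acly, which makes cytosolic acetyl-CoA from citrate, at 44.8. Tmem97 averaged 32.5 and Insig2 24.4 CPM per kilobase. Fdps (0.269), Acss2 (0.506), Idi1 (0.582), Lss (1.1) and Hsd17b7 (1.68) were the lowest. Single genes were measured with unequal precision: the SD of log2 CPM between samples of a group ran from 0.14 for Npc2 to 1.09 for Sqle, and that between technical replicates of a sample from 0.23 for Npc2 to 1.67 for Acss2. Among the 51 libraries, Fdps was at 0 in 3, Idi1 in 4 and Acss2 in 5.

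**Figure D1:**
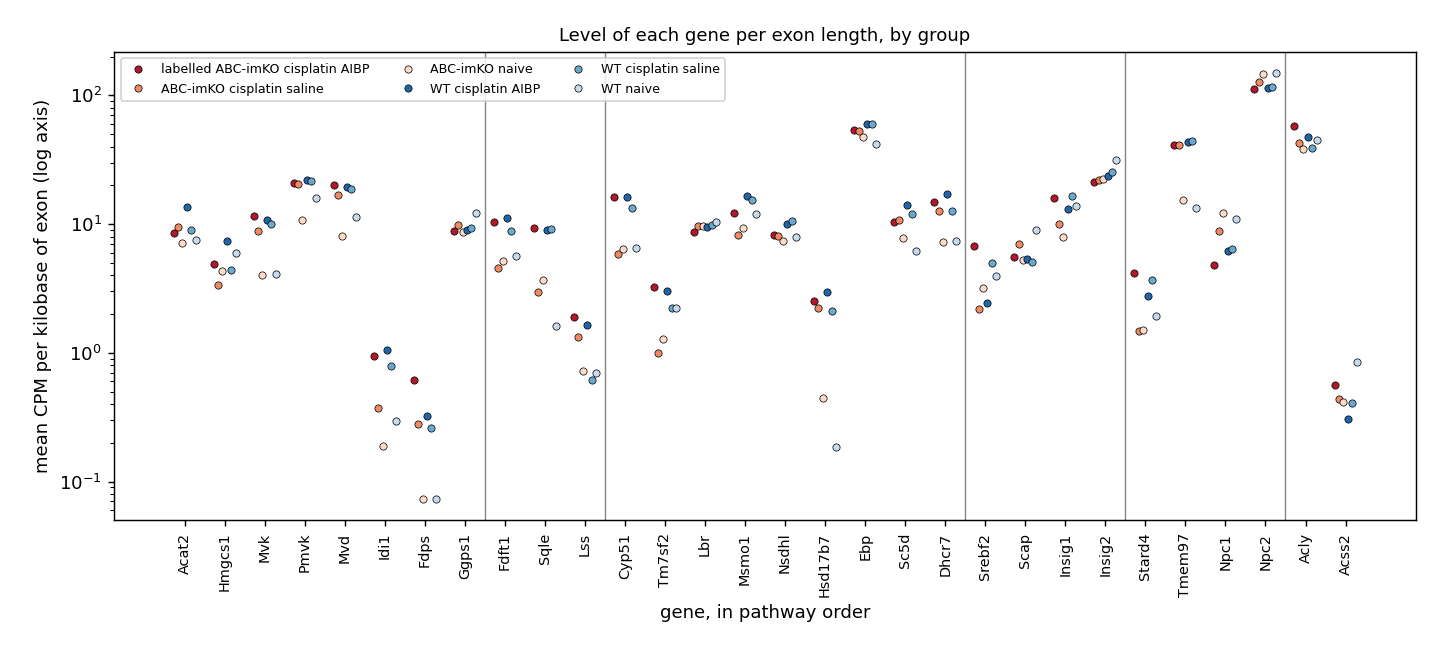
Mean level of each of the 30 genes in CPM per kilobase of exon (log axis), in pathway order, with 1 point per group. Npc2 is highest in every group, and Hsd17b7 has its lowest points, 0.445 and 0.187, in ABC-imKO naive and WT naive.

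**Figure D2:**
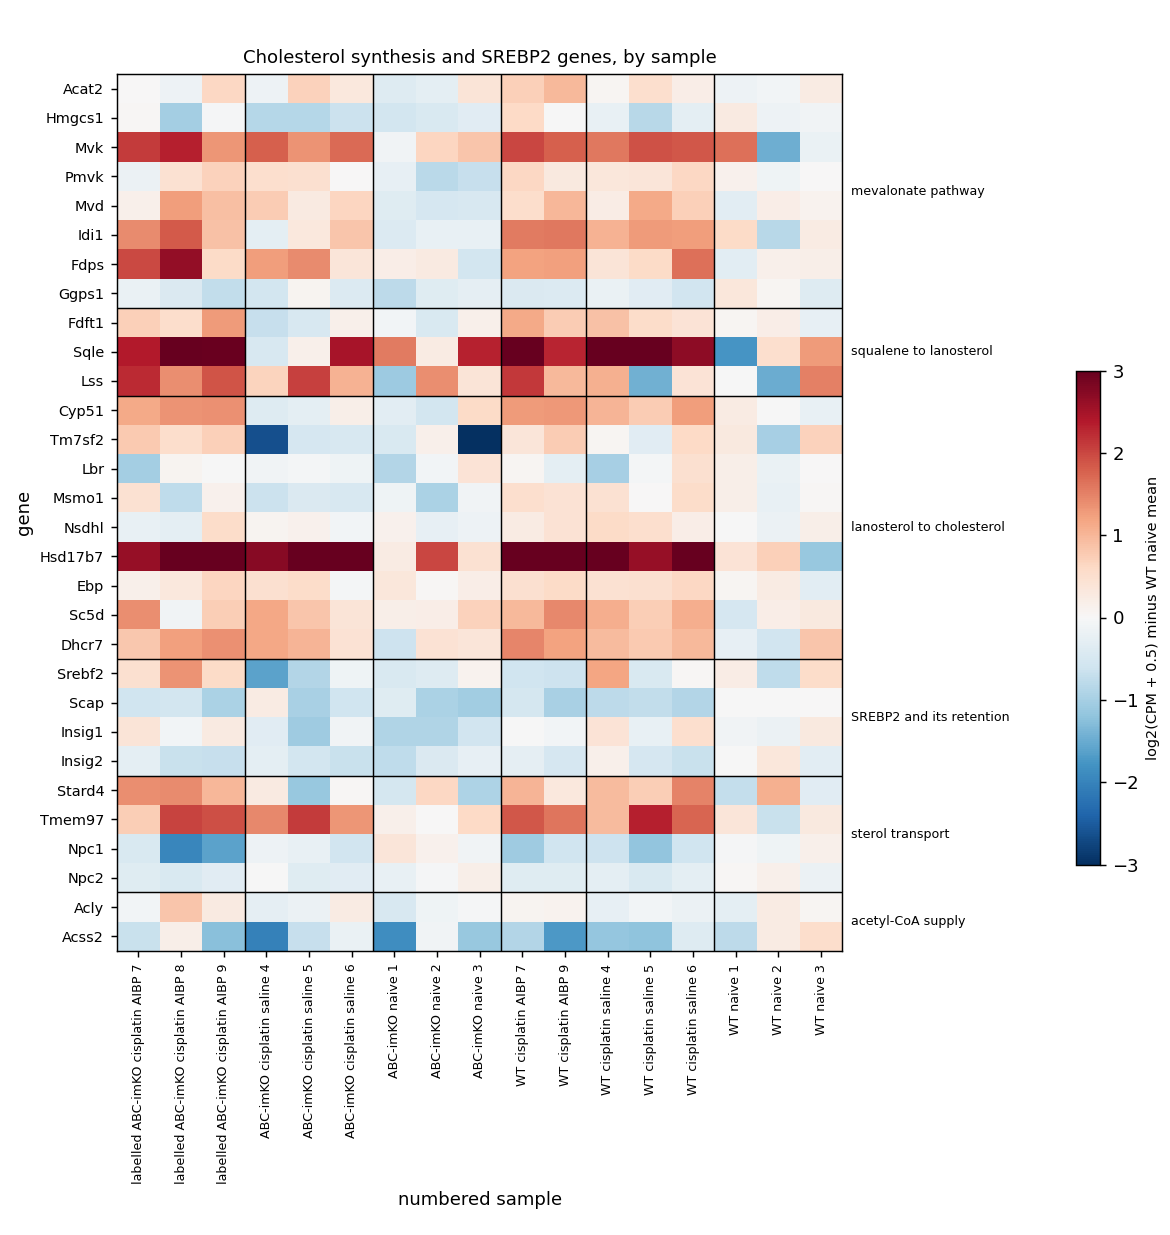
log2(CPM + 0.5) of each gene in each of the 17 samples minus its mean in WT naive, with red higher and blue lower, and values beyond 3 shown as 3. Hsd17b7, Tmem97, Sqle and Mvk are red in most cisplatin samples, and for Fdft1 and Cyp51 the ABC-imKO cisplatin saline samples are lower than those of the other cisplatin groups.

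The values of every sample follow for the genes that passed a test or came nearest to one. On GRCm38 with GENCODE M21 annotation, the genes that passed are Cyp51 (chr5:4081145-4104746), Hsd17b7 (chr1:169949535-169969241), Mvd (chr8:122433601-122443422), Tmem97 (chr11:78541817-78550777) and Npc1 (chr18:12189692-12236400), all on the minus strand, and counts cover all their exons. In the mevalonate pathway these are Mvd, Pmvk, which phosphorylates mevalonate phosphate, and Idi1, which isomerises isopentenyl diphosphate. Mvd stood at 23.3, 50.5 and 39.2 CPM in the samples labelled ABC-imKO cisplatin AIBP, 35.5, 25.1 and 32.6 in ABC-imKO cisplatin saline, 16.2, 14.4 and 14.7 in ABC-imKO naive, 30.4 and 42.1 in WT cisplatin AIBP, 24.3, 46.4 and 34.3 in WT cisplatin saline, with 16.6, 24.2 and 22.5 in WT naive. Every cisplatin sample therefore lay above every naive sample of its own label's genotype. Pmvk stood at 24.2, 37.8 and 44.6 CPM in the samples labelled ABC-imKO cisplatin AIBP, 39.1, 38.1 and 27.6 in ABC-imKO cisplatin saline, 22.9, 15.4 and 16.8 in ABC-imKO naive, 42.4 and 33.4 in WT cisplatin AIBP, 34.5, 35.1 and 42.4 in WT cisplatin saline, with 29.8, 24.96 and 27.3 in WT naive. It showed the same separation of cisplatin from naive samples, narrowest in the samples labelled ABC-imKO cisplatin AIBP. Idi1, a gene of few counts, stood at 3.28, 4.56 and 2.12 CPM in the samples labelled ABC-imKO cisplatin AIBP, 0.654, 1.27 and 2.01 in ABC-imKO cisplatin saline, 0.567, 0.718 and 0.707 in ABC-imKO naive, 3.65 and 3.75 in WT cisplatin AIBP, 2.44, 2.94 and 2.91 in WT cisplatin saline, with 1.60, 0.303 and 1.19 in WT naive. Its ABC-imKO cisplatin saline samples overlapped ABC-imKO naive, and they lay below every WT cisplatin saline sample.

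From squalene to cholesterol the genes nearest to a test were Fdft1, which makes squalene, Cyp51 and Hsd17b7. Fdft1 stood at 39.2, 34.4 and 58.1 CPM in the samples labelled ABC-imKO cisplatin AIBP, 14.6, 17.1 and 26.4 in ABC-imKO cisplatin saline, 22.4, 17.2 and 26.4 in ABC-imKO naive, 53.3 and 40.4 in WT cisplatin AIBP, 44.3, 35.2 and 32.1 in WT cisplatin saline, with 24.8, 27.3 and 19.9 in WT naive. Cyp51 stood at 64.1, 74.4 and 75.1 CPM in the samples labelled ABC-imKO cisplatin AIBP, 21.9, 23.4 and 32.3 in ABC-imKO cisplatin saline, 23.1, 19.5 and 42.9 in ABC-imKO naive, 70.8 and 71.8 in WT cisplatin AIBP, 58.6, 48.7 and 69.4 in WT cisplatin saline, with 34.2, 28.2 and 24.4 in WT naive. For both genes ABC-imKO cisplatin saline lay at the level of the naive samples and below every other cisplatin sample. Hsd17b7 stood at 7.21, 22.0 and 9.61 CPM in the samples labelled ABC-imKO cisplatin AIBP, 7.94, 11.8 and 14.7 in ABC-imKO cisplatin saline, 1.01, 4.56 and 1.24 in ABC-imKO naive, 18.6 and 11.8 in WT cisplatin AIBP, 14.2, 7.24 and 10.9 in WT cisplatin saline, with 1.19, 1.58 and 0.0796 in WT naive. All 11 cisplatin samples lay above all 6 naive samples, ABC-imKO cisplatin saline included.

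Of SREBP2 and its partners, Srebf2 and Insig1 came nearest to a test. Srebf2 stood at 37.6, 69.2 and 40.1 CPM in the samples labelled ABC-imKO cisplatin AIBP, 8.37, 14.3 and 24.3 in ABC-imKO cisplatin saline, 19.4, 20.3 and 28.9 in ABC-imKO naive, 17.6 and 17.3 in WT cisplatin AIBP, 61.7, 19.4 and 27.2 in WT cisplatin saline, with 31.1, 15.5 and 39.2 in WT naive. WT cisplatin saline 4, at 61.7 CPM, lay far above its other samples. Insig1 stood at 55.8, 40.2 and 51.3 CPM in the samples labelled ABC-imKO cisplatin AIBP, 33.3, 20.02 and 39.4 in ABC-imKO cisplatin saline, 22.5, 22.3 and 28.4 in ABC-imKO naive, 41.99 and 39.7 in WT cisplatin AIBP, 56.1, 35.9 and 60.2 in WT cisplatin saline, with 39.1, 37.3 and 51.6 in WT naive. The ABC-imKO naive samples lay below every WT sample for Insig1. Scap lay between 31.9 and 79.4 CPM over all samples and Insig2 between 63.4 and 136.

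Among the transport genes, Tmem97 stood at 29.7, 72.8 and 67.8 CPM in the samples labelled ABC-imKO cisplatin AIBP, 48.3, 76.8 and 44.5 in ABC-imKO cisplatin saline, 19.4, 17.6 and 26.5 in ABC-imKO naive, 65.1 and 54.1 in WT cisplatin AIBP, 34.1, 89.1 and 59.8 in WT cisplatin saline, with 22.5, 10.9 and 21.6 in WT naive. Every cisplatin sample was above every naive sample. Npc1, which exports cholesterol from the lysosome, stood at 90.1, 31.7 and 40.3 CPM in the samples labelled ABC-imKO cisplatin AIBP, 111, 107 and 83.5 in ABC-imKO cisplatin saline, 161, 136 and 116 in ABC-imKO naive, 58.9 and 81.9 in WT cisplatin AIBP, 80.5, 54.5 and 82.3 in WT cisplatin saline, with 122, 113 and 139 in WT naive. Every cisplatin sample was below every naive sample here, the opposite of Tmem97. Npc2 lay between 586 and 905 CPM, and Stard4, a cytosolic sterol carrier, between 3.93 and 27.03 CPM.

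**Figure D3:**
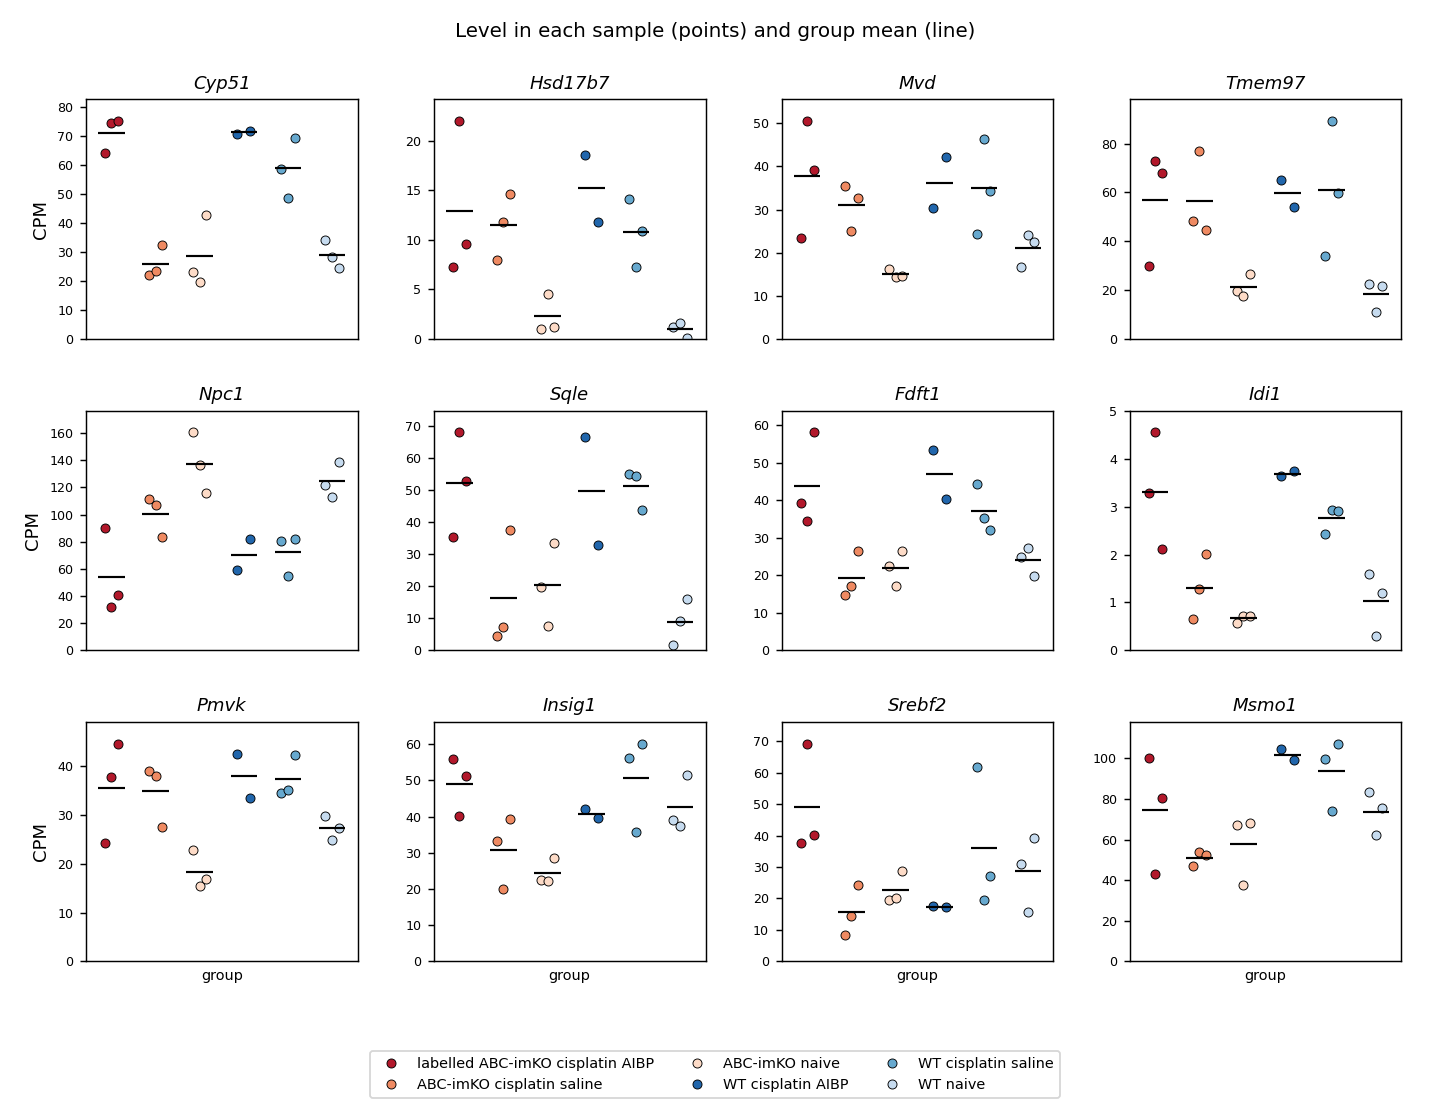
Level in CPM of 12 genes in each sample (points), with the mean of each group (line), each panel starting at 0. Cyp51 and Fdft1 have low points in ABC-imKO cisplatin saline, and Hsd17b7 and Tmem97 are higher in all cisplatin samples than in all naive samples.

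The other members passed in no comparison in edgeR with the settings used here and are given by range. Some passed under an alternative. DESeq2 called Sqle, Sc5d, Dhcr7 and Fdps, among others, in comparisons with naive. It called Sqle in WT cisplatin saline (adjusted p = 0.00758), and the stricter filter called Sqle there too (adjusted p = 0.0412, edgeR). Sqle, which makes squalene epoxide, had wide groups, with 35.3 to 67.8 CPM in the samples labelled ABC-imKO cisplatin AIBP, 4.38 to 37.5 in ABC-imKO cisplatin saline, 7.64 to 33.4 in ABC-imKO naive, 32.8 to 66.5 in WT cisplatin AIBP, 43.8 to 54.9 in WT cisplatin saline and 1.496 to 15.99 in WT naive. Over all samples, Mvk lay between 2.37 and 39.4 CPM, Hmgcs1 between 13.04 and 41.3, Acat2 between 14.4 and 37.6, Fdps between 0.0482 and 4.45, Ggps1 between 32.5 and 71.6 and Lss between 1.55 and 26.3. Past lanosterol, Tm7sf2 lay between 0.675 and 15.6 CPM, Lbr between 24.0 and 68.7, Msmo1 between 37.7 and 107, Nsdhl between 18.3 and 33.5, Ebp between 76.8 and 149, Sc5d between 20.4 and 79.7 and Dhcr7 between 25.1 and 107. Acly lay between 166 and 415 CPM and Acss2, the acetate-using enzyme, between 1.58 and 11.8.

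In WT microglia, cisplatin with intrathecal saline was set against naive. Hsd17b7 and Tmem97 rose. Hsd17b7 averaged 10.8 ± 3.46 CPM in WT cisplatin saline and 0.952 ± 0.781 in WT naive, and Tmem97 averaged 61.0 ± 27.5 and 18.3 ± 6.47 CPM in the same order (SD, n = 3 each). Hsd17b7 held only 153 counts over the 3 WT naive samples, so the size of its fold change rests on a reference near 0. In edgeR's quasi-likelihood test with Benjamini-Hochberg adjustment over 20461 genes, the log2 fold change was 3.50 ± 0.87 for Hsd17b7 (SE, adjusted p = 0.0450) and 1.74 ± 0.41 for Tmem97 (adjusted p = 0.0362). They were 2 of 30 members higher, against 1.95% of all genes tested, and 0 of 30 lower, against 0.953%. Cyp51 came next (1.02 ± 0.27, adjusted p = 0.0603). Of the 30, 20 had a positive fold change, with a median of 0.39 against -0.01 over all genes tested, and 13 had an unadjusted p under 0.05. Here and below, counts of members with an unadjusted p under 0.05 come without the share of all genes. They are therefore no result about the members. By role, 8 of 9 genes from lanosterol to cholesterol were positive (median 0.51), 6 of 8 in the mevalonate pathway (0.59), 2 of 3 from squalene to lanosterol (0.63), 2 of 4 in the SREBP2 group (-0.04), 2 of 4 in sterol transport (0.28) and 0 of 2 in acetyl-CoA supply (-0.62). The 3 WT cisplatin saline samples lay above all WT naive samples in 12 of 30 members, against 12% of all genes and 14% of genes with a mean of 10 CPM or more, and below them in 4, against 10.7% and 17.7%. The 4 were Hmgcs1, Scap, Npc1 and Npc2. The naive mice had no intrathecal injection, so cisplatin and the injection cannot be told apart.

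Both calls depended on single samples. That of Hsd17b7 was lost when any of the 6 samples of the comparison was left out (adjusted p = 0.0685 to 0.133, edgeR), and that of Tmem97 when any but WT cisplatin saline 4 was (0.0774 to 0.187). Samples of other groups, which enter the shared estimate of spread, also ended them: WT cisplatin AIBP 7 or 9 for both genes, and for Hsd17b7 also ABC-imKO naive 3, ABC-imKO cisplatin saline 5 or 6 and sample 9 labelled ABC-imKO cisplatin AIBP (0.0501 to 0.0661). With WT cisplatin saline 4 as the lone treated sample, whose summed monocyte markers were below those of samples 5 and 6 but above every WT naive sample, Hsd17b7 had a log2 fold change of 3.94 (adjusted p = 0.387) and Tmem97 of 0.95 (adjusted p = 0.805), where its spread was taken to be that of the other groups. The mean log2 difference of the 30 members from WT naive was 0.53, 0.35 and 0.62 in WT cisplatin saline 4, 5 and 6. That of the 10 monocyte markers was 0.27, 3.53 and 3.30. Sample 4 lay between the others in the members and below both in the markers. Of the called genes, Tmem97 had the order of the markers, lowest in sample 4 and highest in sample 5. Hsd17b7 had the reverse order. Proliferation genes moved with the comparison, with 4 of 12 called higher (Top2a, Mcm2, Mcm3 and Mcm5) and 883 CPM or more in each WT cisplatin saline sample, against at most 375 in WT naive. The part of monocyte, border macrophage and proliferation transcripts in the Hsd17b7 and Tmem97 differences was not tested. In bulk samples, fewer cells of a type and less RNA per cell cannot be told apart.

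In ABC-imKO microglia, no member passed the test between cisplatin saline and naive, where 4.41% of all genes did, 2.42% higher and 1.99% lower. Pmvk (0.93 ± 0.25, adjusted p = 0.0539, edgeR), Tmem97 (1.42 ± 0.41, adjusted p = 0.0668) and Mvd (1.04 ± 0.31, adjusted p = 0.0741) came nearest. Of the 30 members, 5 had an unadjusted p under 0.05. DESeq2 called 4 (Pmvk, Mvd, Hsd17b7 and Tmem97), against 10.7% of all genes. Fitted without the samples labelled ABC-imKO cisplatin AIBP, an alternative added after seeing the data, edgeR called Pmvk, Mvd and Tmem97 (adjusted p = 0.0330, 0.0442 and 0.0465). The share of all genes called in that fit is not given here, so its calls are no result about the members. Cyp51 had a log2 fold change of -0.14 ± 0.27 and Fdft1 of -0.18 ± 0.28. By role, 7 of 8 were positive in the mevalonate pathway (median 0.95), 1 of 3 from squalene to lanosterol (-0.18), 5 of 9 from lanosterol to cholesterol (0.14), 2 of 4 in the SREBP2 group (0.16), 1 of 4 in sterol transport (-0.12) and 2 of 2 in acetyl-CoA supply (0.12). Differences between these groups of genes were not tested. Over all 30 the median was 0.16, against -0.04 over all genes tested. Samples of ABC-imKO cisplatin saline lay above all ABC-imKO naive samples in 7 members, against 12% of all genes and 17.2% of genes with a mean of 10 CPM or more, and below them in 2, against 11.5% and 16.9%. The 7 were Mvk, Pmvk, Mvd, Fdps, Hsd17b7, Dhcr7 and Tmem97. The summed monocyte markers were 798 CPM or more in each of the cisplatin saline samples and at most 41.3 in naive, and proliferation genes were also higher (1 of 12 called, Mcm2). Their part in these differences was not tested.

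The difference between the genotypes in this response was tested with an interaction term, ABC-imKO minus WT. No member and no gene passed in edgeR (background 0), DESeq2 called no member either, and 3 members had an unadjusted p under 0.05. These were Cyp51 (-1.17 ± 0.38, p = 0.00866, adjusted p = 0.607), Sqle (-2.83 ± 1.14, p = 0.0262) and Scap (1.23 ± 0.40, p = 0.00749). A response in one genotype and not in the other was therefore not shown for any member.

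**Figure D4:**
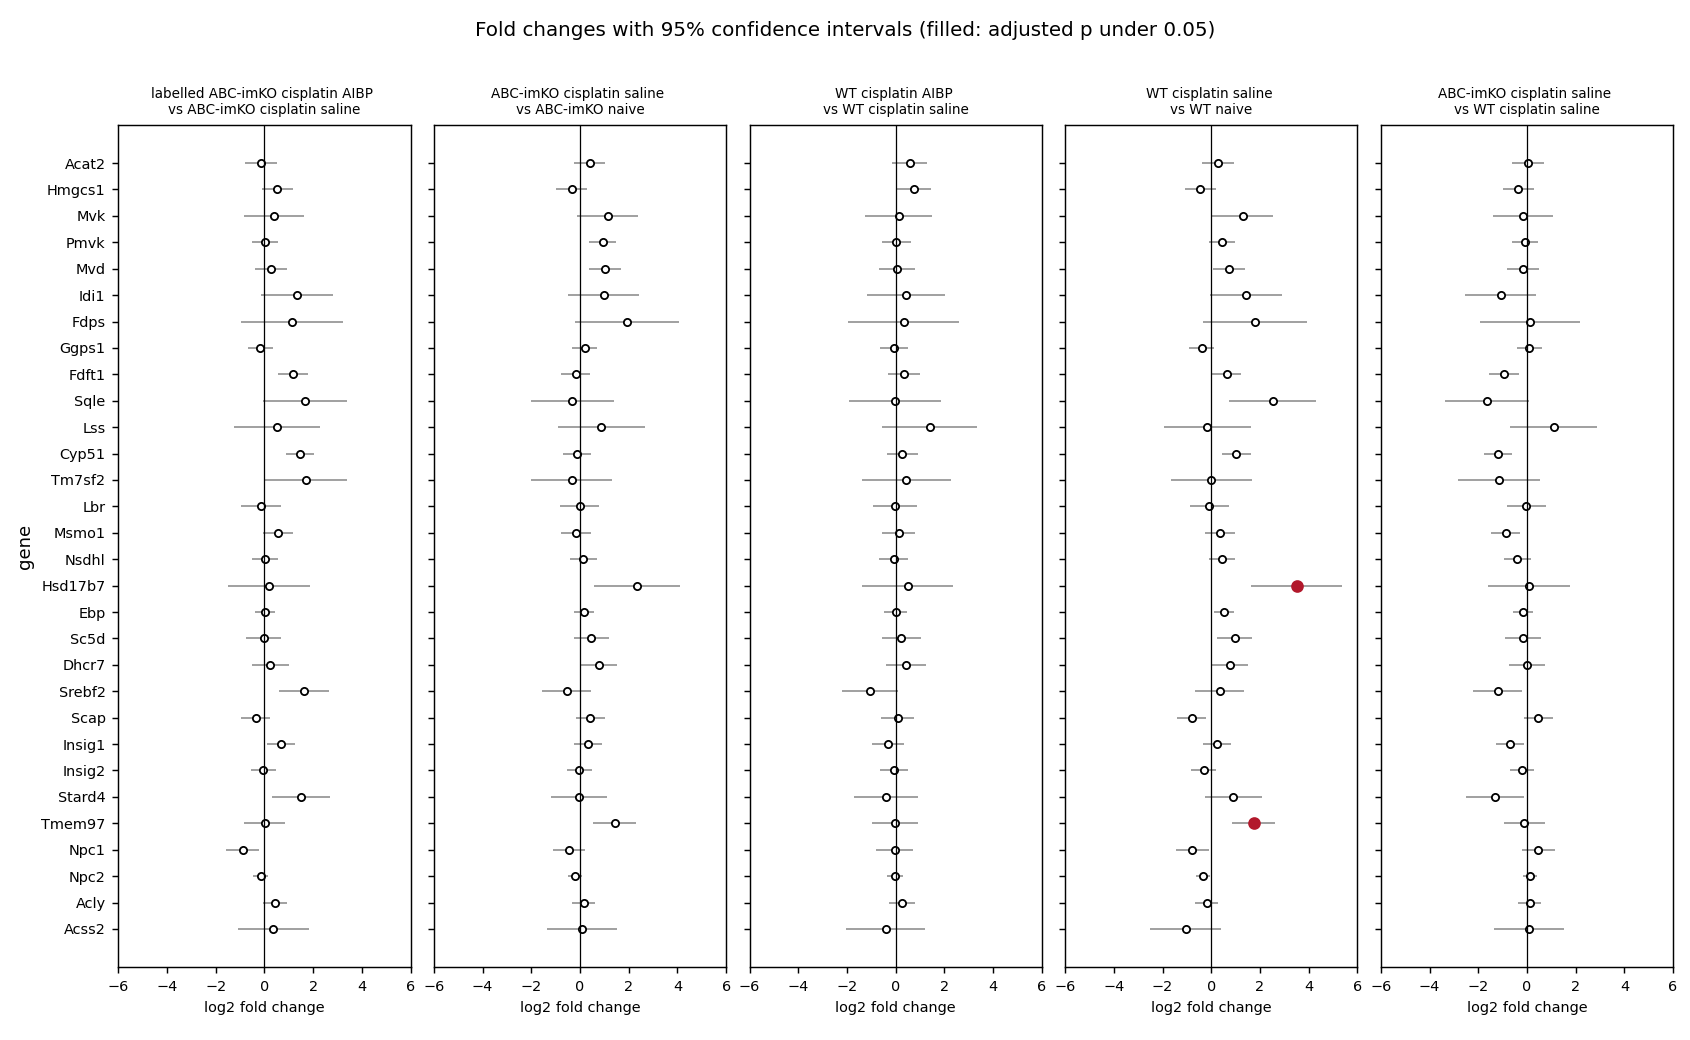
log2 fold change of each gene (point) with its 95% confidence interval (bar) in 5 comparisons. Filled points passed the test at an adjusted p of 0.05 over all genes, and only Hsd17b7 and Tmem97 in WT cisplatin saline vs WT naive did so among those shown.

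AIBP was compared with saline after cisplatin. In WT, no member passed and no gene of 20461 did (background 0), DESeq2 called 0 members, and 1 member, Hmgcs1, had an unadjusted p under 0.05 (0.77 ± 0.33, p = 0.0339). The median of the 30 fold changes was 0.07, against -0.03 over all genes tested. For Cyp51 the 95% interval of the log2 fold change was -0.37 to 0.92 and for Sqle -1.93 to 1.85, from 2 samples against 3. Members with samples of WT cisplatin AIBP above all of WT cisplatin saline numbered 6, against 9.10% of all genes and 11.2% of genes with a mean of 10 CPM or more, and those below numbered 1, Srebf2, against 9.14% and 7.93%.

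The samples labelled ABC-imKO cisplatin AIBP were higher than ABC-imKO cisplatin saline in several members, none past the test. Cyp51 averaged 71.2 ± 6.19 CPM in the samples labelled ABC-imKO cisplatin AIBP and 25.8 ± 5.60 in ABC-imKO cisplatin saline (SD, n = 3 each), with a log2 fold change of 1.46 ± 0.28 (edgeR unadjusted p = 1.0e-04, adjusted p = 0.340). Fdft1 averaged 43.9 ± 12.5 and 19.4 ± 6.22 CPM in the same order (1.18 ± 0.29, adjusted p = 0.616), and Srebf2 48.95 ± 17.6 and 15.7 ± 8.04 CPM (1.64 ± 0.48, adjusted p = 0.706). In this comparison 0.00977% of all genes passed, 2 in number, and they were Apoe (-3.28 ± 0.32, adjusted p = 0.00112) and Cx3cr1 (1.41 ± 0.19, adjusted p = 0.0201), the genes in which these samples went against their label. DESeq2 called 3 members, Fdft1, Cyp51 and Srebf2 (adjusted p = 0.00988, 7.46e-05 and 0.0412). The share of all genes that DESeq2 called in this comparison is not given here, so that count is no result about the members. Of the 30, 22 were positive, with a median of 0.32 against 0.00 over all genes tested, and 6 had an unadjusted p under 0.05. In 7 members the samples labelled ABC-imKO cisplatin AIBP lay above all ABC-imKO cisplatin saline samples (Idi1, Fdft1, Cyp51, Tm7sf2, Srebf2, Insig1 and Stard4), against 4.17% of all genes and 4.76% of genes with a mean of 10 CPM or more, and in 0 below, against 4.43% and 4.81%. Since these samples resembled WT in Cx3cr1 and Apoe, AIBP and a difference in genotype cannot be told apart here. The interaction term for AIBP, ABC-imKO minus WT, called no gene in edgeR (background 0), and 4 members had an unadjusted p under 0.05, Srebf2 first (2.69 ± 0.73, adjusted p = 0.774), the only member DESeq2 called (adjusted p = 0.0215). The share of all genes that DESeq2 called for that term is not given here either.

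Set against naive instead, the AIBP groups held further calls. The naive mice had neither cisplatin nor an intrathecal injection, so cisplatin, the injection and AIBP cannot be told apart in these comparisons. Under the ABC-imKO label, a difference in genotype cannot be told apart from them either. In WT, Cyp51 rose to 71.3 ± 0.737 CPM in WT cisplatin AIBP (n = 2), against 28.96 ± 4.95 in WT naive (n = 3), a log2 fold change of 1.30 ± 0.30 (adjusted p = 0.0492, edgeR). This was 1 of 30 members higher, against 1.06% of all genes, and 0 were lower, against 0.191% (1.25% in either direction). WT cisplatin AIBP lay above all WT naive samples in 16 members, against 17% of all genes and 22.9% of genes with a mean of 10 CPM or more, and below them in 5, against 16.3% and 24.4%. Proliferation genes moved with this comparison too (4 of 12 called higher), and their part in it was not tested. The Cyp51 call was lost when any of the 5 samples was left out (adjusted p = 0.102 to 0.285, edgeR), without all samples labelled ABC-imKO cisplatin AIBP (adjusted p = 0.0626), and without any single one of them, WT cisplatin saline 6, ABC-imKO naive 1 or ABC-imKO cisplatin saline 5 or 6 (0.0513 to 0.0674). Hsd17b7 had a log2 fold change of 4.0 ± 0.93 (adjusted p = 0.0508) and Tmem97 of 1.702 ± 0.44 (adjusted p = 0.0806), and the median over the 30 was 0.49 against -0.07 over all genes tested. In the samples labelled ABC-imKO cisplatin AIBP, Cyp51 (1.32 ± 0.28, adjusted p = 0.0195) and Mvd (1.32 ± 0.31, adjusted p = 0.0355) rose and Npc1 fell by 1.35 ± 0.32 on the log2 scale (adjusted p = 0.0380) relative to ABC-imKO naive. That made 2 of 30 higher, against 1.81% of all genes, and 1 lower, against 0.870% (2.68% in either direction), and the median of the 30 was 0.97, against -0.07. All 8 mevalonate pathway genes were positive (median 1.14). The samples labelled ABC-imKO cisplatin AIBP lay above all ABC-imKO naive samples in 16 members, against 10.1% of all genes and 13.3% of genes with a mean of 10 CPM or more, and below them in 2, Npc1 and Npc2, against 9.77% and 13.8%. Leaving out 1 of the 6 samples ended the Mvd and Npc1 calls in 5 cases each, all but sample 7 of the AIBP group (adjusted p up to 0.185 and 0.163, edgeR), and the Cyp51 call in 4, all but that sample and ABC-imKO naive 3 (up to 0.103). WT cisplatin saline 6 and WT cisplatin AIBP 9 ended both the Mvd and the Npc1 call, and WT naive 1, WT cisplatin AIBP 7 and ABC-imKO cisplatin saline 5 the Npc1 call (0.0504 to 0.0543). Sample 7 had the lowest Mvd and the highest Npc1 of its group. The summed monocyte markers, 301 CPM or more in the samples labelled ABC-imKO cisplatin AIBP and at most 41.3 in ABC-imKO naive, moved with this comparison, as did the proliferation genes (3 of 12 called higher), and their part in it was not tested. Comparisons of cisplatin saline and of cisplatin AIBP with naive share their naive samples within a genotype and are not independent of each other.

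Knockout and wild type were compared within each treatment. In naive mice no member passed, where 0.00489% of genes did, and neither did any in DESeq2. Of the 30, 23 were negative (median -0.11, against 0.00 over all genes tested), all 8 mevalonate pathway genes among them (median -0.48), and 3 had an unadjusted p under 0.05. ABC-imKO naive lay below all WT naive samples in 5 members (Hmgcs1, Pmvk, Mvd, Scap and Insig1), against 4.14% of all genes and 5.50% of genes with a mean of 10 CPM or more, and above them in 0, against 5.49% and 5.12%. Insig1 averaged 24.4 ± 3.49 CPM in ABC-imKO naive and 42.7 ± 7.78 in WT naive (-0.81 ± 0.27, adjusted p = 0.789, edgeR). After cisplatin and saline, no member passed in edgeR, where 0.0440% of genes did. Cyp51 averaged 25.8 ± 5.60 CPM in ABC-imKO cisplatin saline and 58.9 ± 10.4 in WT cisplatin saline (-1.19 ± 0.27, adjusted p = 0.191), Fdft1 19.4 ± 6.22 and 37.2 ± 6.38 CPM (-0.94 ± 0.28, adjusted p = 0.381), and DESeq2 called both (adjusted p = 0.00237 and 0.0463). The share of all genes that DESeq2 called between these groups is not given here, so those calls are no result about the members. There were 6 members with an unadjusted p under 0.05, and 8 lay below all WT cisplatin saline samples (Idi1, Fdft1, Sqle, Cyp51, Tm7sf2, Msmo1, Nsdhl and Stard4), against 6.40% of all genes and 7.70% of genes with a mean of 10 CPM or more, with 1 above, Npc1, against 6.10% and 7.74%. The samples labelled ABC-imKO cisplatin AIBP and WT cisplatin AIBP were told apart by the test in no member (background 0 in edgeR, 0 called in DESeq2, 1 with an unadjusted p under 0.05, Srebf2). Their values did not overlap in Srebf2, higher in the samples labelled ABC-imKO cisplatin AIBP (10.8% of all genes and 11.7% of genes with a mean of 10 CPM or more), and in Acat2, lower (11.4% and 14.3%). For Cyp51 the 95% interval of that log2 fold change was -0.65 to 0.64.

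Genes of neighbouring pathways were taken from lists drawn up with earlier results of these data known. Against naive, edgeR called 2.91% of all genes in WT cisplatin saline and 4.41% in ABC-imKO cisplatin saline. It called 1.25% in WT cisplatin AIBP and 2.68% in the samples labelled ABC-imKO cisplatin AIBP. A single called gene is no result about its list. Monocyte and proliferation transcripts moved with these comparisons, and their part in the genes named was not tested. Among genes for other sterol synthesis and SREBP processing, Rnf145, a ubiquitin ligase of the endoplasmic reticulum, fell in WT cisplatin saline relative to WT naive (-0.77 ± 0.19, adjusted p = 0.0450, edgeR) and in the samples labelled ABC-imKO cisplatin AIBP relative to ABC-imKO naive (-1.03 ± 0.19, adjusted p = 0.0107).

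Of 13 genes that use isoprenoids, Pdss1, which builds the tail of coenzyme Q, rose in all 4 comparisons of cisplatin with naive. It stood at 18.5, 22.95 and 28.97 CPM in the samples labelled ABC-imKO cisplatin AIBP, 23.5, 27.2 and 27.004 in ABC-imKO cisplatin saline, 4.40, 9.90 and 4.40 in ABC-imKO naive, 34.5 and 27.6 in WT cisplatin AIBP, 20.2, 26.03 and 18.6 in WT cisplatin saline, with 10.3, 6.19 and 8.41 in WT naive. The groups did not overlap, and its adjusted p in edgeR was 0.00952 (samples labelled ABC-imKO cisplatin AIBP), 0.00417 (ABC-imKO cisplatin saline), 0.0244 (WT cisplatin AIBP) and 0.0423 (WT cisplatin saline), each against its naive group. None of the 13 genes of SREBP1 and fatty acid synthesis passed in any comparison, with medians between -0.45 in WT cisplatin saline and 0.81 in ABC-imKO cisplatin saline, each relative to naive. Among 7 tested genes of cholesterol esters and oxysterols, Nceh1, a cholesterol ester hydrolase, rose in ABC-imKO cisplatin saline relative to ABC-imKO naive (1.14 ± 0.30, adjusted p = 0.0446). Of 8 genes of LXR, the receptor that senses oxysterols, and its targets, Mylip, a ubiquitin ligase induced by LXR, fell relative to ABC-imKO naive in ABC-imKO cisplatin saline (-0.93 ± 0.20, adjusted p = 0.0159) and in the samples labelled ABC-imKO cisplatin AIBP (-1.42 ± 0.20, adjusted p = 0.00251). Apoe rose in ABC-imKO cisplatin saline relative to ABC-imKO naive (1.68 ± 0.30, adjusted p = 0.00602) and relative to WT cisplatin saline (2.98 ± 0.32, adjusted p = 0.00318).

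Reads from near-identical copies can be split between genes, and how the authors' counting treated them is not given in the sources used here. At an identity of 95% or more over at least 100 bases, Fdps shared 91.4% of its transcript with 6 other genes, Acat2 65.6% (longest match Acat3), Fdft1 54.7% (longest match the pseudogene Gm6781), Tmem97 38.5% (Gm5809), Idi1 33.3%, Ggps1 27.3% and Npc1 9.9% (Rmc1). Over all samples the genes sharing sequence held 5925825 counts against 34028 for Fdft1, 180892 against 25085 for Acat2, 74864 against 49804 for Ggps1, 75377 against 102360 for Npc1, 377 against 2258 for Idi1, 522 against 1327 for Fdps and 87 against 50234 for Tmem97. These are whole-gene counts, summed over all genes that share at least 100 bases (2 for Fdft1). How they divide between the match named and any other gene is not given here. Neither is the number of reads that fall in shared sequence. Levels of Fdps, Acat2, Fdft1, Tmem97, Idi1, Ggps1 and Npc1 are uncertain, because how reads in shared sequence were counted is not given. Cyp51 shared 4.2% with the overlapping gene Akap9 (154693 counts against 50461), and Mvd, Hsd17b7, Pmvk, Sqle and Srebf2 shared none.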

How the data were processed

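RNA from sorted spinal microglia was primed with oligo(dT), amplified by PCR, made into Nextera XT libraries and read as paired 50-base reads, per the labels' protocols. Per the submitters' processing notes, the build was GRCm38 and the tools included STAR 2.6.0a, DESeq2 and bcl2fastq, with MultiQC 1.7 and FastQC 0.11.17 for quality control. Which gene counter was used, and with which strand setting, is not given in the sources used here. Raw counts of 53715 genes in 102 runs were deposited by the authors. The normalized table the authors deposited holds signal values, each the raw count divided by 1 size factor per run (0.437 to 1.62, the ratio constant within 1e-09 in all 102 runs). Beyond that check it was used only to count genes, for gene symbols and to find the members by symbol.

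Counts of 6 runs (3 technical replicates on 2 lanes) were summed into 17 numbered samples of 45072898 to 76643616 counts. Symbols came from the deposited normalized table, or from GENCODE M21 for genes without a symbol there, and 95 IDs had none. Genes were filtered by filterByExpr, normalized by TMM (0.885 to 1.11) and tested with edgeR 4.0.16 in R 4.3.3 by the quasi-likelihood F test over all 6 groups (11 residual degrees of freedom), with Benjamini-Hochberg adjustment over 20461 genes at 0.05. Errors beside log2 fold changes are standard errors and intervals are 95% confidence intervals. The code was tested on simulated data. Nothing in the labels says that numbered samples came from separate animals, so p-values measure only the spread between these samples. The common biological coefficient of variation was 0.922, which limits what 3 samples can show. With group and technical replicate number fitted in limma-voom, libraries of 1 sample correlated at only 0.0886. The block for technical replicates therefore treated the 51 libraries as nearly independent.

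The members and the other lists were chosen with earlier results of these data known. Values of every sample are given for each member called in any comparison and for the 10 with the smallest unadjusted p in a pairwise comparison. List genes were named where called, and some are not reported here. Alternatives were DESeq2 1.42.0, limma-voom (limma 3.58.1), no filter, a filter of 10 CPM in 2 samples, the groups of a comparison alone, each sample or technical replicate left out, and blocks for technical replicates or sample numbers. One further alternative, without the samples labelled ABC-imKO cisplatin AIBP, was added after seeing the data. Promoter sequences are from RefSeq on GRCm38.p6.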

Additional observations from a re-analysis of the deposited data

Results flagged for a closer look

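For Srebf2 the samples with AIBP lay on opposite sides of their saline groups under the labels of the 2 genotypes, although it passed in neither AIBP comparison in edgeR (adjusted p = 0.706 under the ABC-imKO label and 0.996 in WT). It stood at 37.6, 69.2 and 40.1 CPM in the samples labelled ABC-imKO cisplatin AIBP, against 8.37, 14.3 and 24.3 in ABC-imKO cisplatin saline, and at 17.6 and 17.3 CPM in WT cisplatin AIBP, against 61.7, 19.4 and 27.2 in WT cisplatin saline. All 3 samples labelled ABC-imKO cisplatin AIBP lay above their saline group and both WT cisplatin AIBP samples lay below theirs. WT cisplatin saline 4, at 61.7 CPM, stood far above the other two samples of its group. The difference between the responses was 2.69 ± 0.73 on the log2 scale (SE, ABC-imKO minus WT), which did not pass in edgeR (adjusted p = 0.774) and passed in DESeq2 (adjusted p = 0.0215). The first 3 samples went against their label in Cx3cr1 and Apoe, so the direction under the ABC-imKO label depends on that label.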

How the results depend on the processing

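Of the called genes, directions held in every alternative run, while the number of members called moved with the tool and the samples. Which members were called moved too. For WT cisplatin saline vs WT naive, the single call with limma-voom was Cyp51 (adjusted p = 0.0480). Without technical replicate 3 it was also Cyp51 (adjusted p = 0.0223, edgeR). Neither Hsd17b7 nor Tmem97 was called in those settings. WT cisplatin saline vs WT naive (2 called) had 5 with DESeq2, 4 with the stricter filter, 1 with limma-voom, 0 with only its own groups, 0 without WT cisplatin saline 5 and 6, 0 and 1 without technical replicate 2 and 3, 7 with technical replicates as a block, 1 without the samples labelled ABC-imKO cisplatin AIBP, and 0 to 2 with 1 sample left out. ABC-imKO cisplatin saline vs ABC-imKO naive (0 called) had 4 with DESeq2, 1 with no filter, 3 with the stricter filter, 1 without technical replicate 1 or 3, 2 with the technical block, 3 without the labelled samples, and 0 to 3 with 1 sample left out. The samples labelled ABC-imKO cisplatin AIBP vs ABC-imKO cisplatin saline (0) had 3 with DESeq2 and 2 with the technical block, and ABC-imKO vs WT after cisplatin saline (0) had 2 and 3. WT cisplatin AIBP vs WT naive (1) had 7 with DESeq2, 3 with no filter, 4 with the stricter filter, 6 with the technical block, 0 without WT cisplatin saline 5 and 6, without technical replicate 2 or without the labelled samples, and 0 to 2 with 1 sample left out. The samples labelled ABC-imKO cisplatin AIBP vs ABC-imKO naive (3) had 11 with DESeq2, 8 with the stricter filter, 9 with the technical block, 0 with only their own groups or without technical replicate 2, and 0 to 5 with 1 sample left out. The AIBP interaction (0) had 1 with DESeq2. DESeq2 also called more of all genes, 8.71% and 10.7% in the WT and ABC-imKO saline comparisons with naive. The cause of these shifts was not tested. For the other alternatives and comparisons the share of all genes called is not given here. Member counts under them, here and above, are therefore no result about the members. The technical block treated libraries of 1 sample as nearly independent (correlation 0.0886), which limits its counts. Sample numbers did not pair the genotypes (correlation of deviations -0.137 to 0.145 over 8 pairs), and with the sample number as a replicate block 0 members were called in the 3 genotype comparisons, the same as without it. Fdps, Idi1 and Acss2 had few counts. Hsd17b7 also had few in WT naive, where it held 153 counts over the 3 samples, against 171 for Idi1. The part of low counts in the spread of these genes was not tested.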
